A study of Mus musculus with 11 samples.

Results

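The cholesterol biosynthesis enzymes described here were 9 genes, Hmgcs1, Mvd, Idi1, Fdps, Fdft1, Sqle, Lss, Cyp51 and Dhcr7, taken by symbol from the 20893 genes of the deposited table and followed through mouse livers with and without YAP activation. Cholesterol is built from acetyl-CoA in a long chain of reactions: the mevalonate steps make a small isoprenoid unit, isoprenoid units are joined into squalene, squalene is closed into lanosterol, and lanosterol is trimmed and rearranged into cholesterol. The liver is a main site of this synthesis. Most of the enzymes are known to be controlled together by SREBP-2, a membrane-bound transcription factor that is released when sterols are scarce.

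Whole livers of C57BL/6 mice were profiled by bulk RNA-seq in 11 libraries, 1 per liver. All mice carried ROSA26-rtTA-IRES-EGFP, the doxycycline-dependent activator, which per the methods of the study was switched on by an Albumin-Cre and so in cells of the hepatocyte lineage. The 4 control livers were WT for the YAP transgene and came from mice fed doxycycline for 7 days. The tetYAP livers carried a doxycycline-inducible YAPS127A, a constitutively active YAP, and came from mice fed doxycycline for 3 days (4 livers) or 7 days (3 livers). Ages are not given in the sources used here, and the labels do not say whether the livers came from separate litters, so that the p-values measure the spread between these libraries only. Levels are in eRPKM, a count of exon reads per kilobase of the gene, adjusted for the size of each library.

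Depth differed with the groups. The 4 control libraries held 1251396 to 5495697 reads on genes, the 3-day libraries 2660233 to 3681416 and the 7-day libraries 5312486 to 5941357. Control liver 2, with 5495697 reads, was the control nearest to the 7-day livers. By the level of Xist against that of the Y-linked Ddx3y, control livers 2 and 3, 3-day livers 3 and 4 and all 3 of the 7-day livers were female, and control livers 1 and 4 and 3-day livers 1 and 2 were male. The Yap1 row did not separate the groups (13.9 to 21.1 eRPKM in controls and 17.4 to 19.0 eRPKM at 7 days), and whether it counts the transgene is not given in the sources used here. The YAP targets Cyr61 and Ctgf rose by 3.27 and 3.49 on the log2 scale at 7 days against control (limma, Benjamini-Hochberg adjusted p = 8.01e-06 and 1.25e-05). Of 8 hepatocyte markers 2 fell at 7 days, with a median log2 fold change of -0.88 and a summed level of 1813 to 5528 eRPKM in controls and 1488 to 1671 eRPKM at 7 days. The low end of the controls, 1813 eRPKM, was control liver 2, the one of like depth, and reads of Alb were 2417 to 3102 over the 11 livers, so that its eRPKM was lower in deeper libraries (268 in control liver 2 and 234 to 258 at 7 days). Of 5 measured macrophage markers 4 rose (178.99 to 368 eRPKM summed in controls, 651 to 729 eRPKM at 7 days), of 6 biliary markers 1 rose (38.1 to 49.0 and 62.4 to 112 eRPKM), and all 4 markers of dividing cells rose (3.69 to 16.6 and 89.3 to 138 eRPKM). Of all genes tested, 5.77% were called lower and 18% higher in this comparison, so that 1 of 6 biliary markers is near the share of all genes.

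Across the steps of the pathway, no enzyme was called at 3 days, and the enzymes of isoprenoid and late sterol synthesis were lower at 7 days. Of the 9 genes, 8 passed the filter on low values and could be tested. At 3 days against control, 0 of the 8 were called and 0 reached an unadjusted p under 0.05 in limma (4.21% of all genes did so as lower and 7.86% as higher), and 0 were called with limma-voom on recovered reads. Their log2 fold changes ran from -0.19 (Lss) to 0.26 (Mvd), with 4 below 0. Among all 14244 genes tested, 0% were called lower and 0.0421% higher at 3 days. At 7 days against control, 5 of the 8 fell and 0 rose: Cyp51, Idi1, Fdps, Dhcr7 and Fdft1, where a call needed an adjusted p under 0.01 and a log2 fold change beyond 0.5 in either direction. The background of genes called lower was 5.77% and of genes called higher 18%. At an unadjusted p under 0.05, 7 of the 8 were lower and 0 higher, against 12.9% and 34.5% of all genes. For 6 of the 8, those 5 and Lss, every 7-day liver was below every control, as it was for 13.3% of all genes. The median log2 fold change was -1.30 over the 8 enzymes and 0.26 over all genes tested. At 7 days against 3 days, a comparison that uses the same 7-day livers, the 5 called genes were again Cyp51, Idi1, Fdps, Dhcr7 and Fdft1, where 5.31% of all genes were called lower and 14% higher. For 6 of the 8, those 5 and Sqle, every 7-day liver was below every 3-day liver, as it was for 13.8% of all genes. In whole liver, fewer cells of a type and less RNA per cell cannot be told apart. The part of the shifts in marker genes in these differences was not tested.

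**Figure D1:**
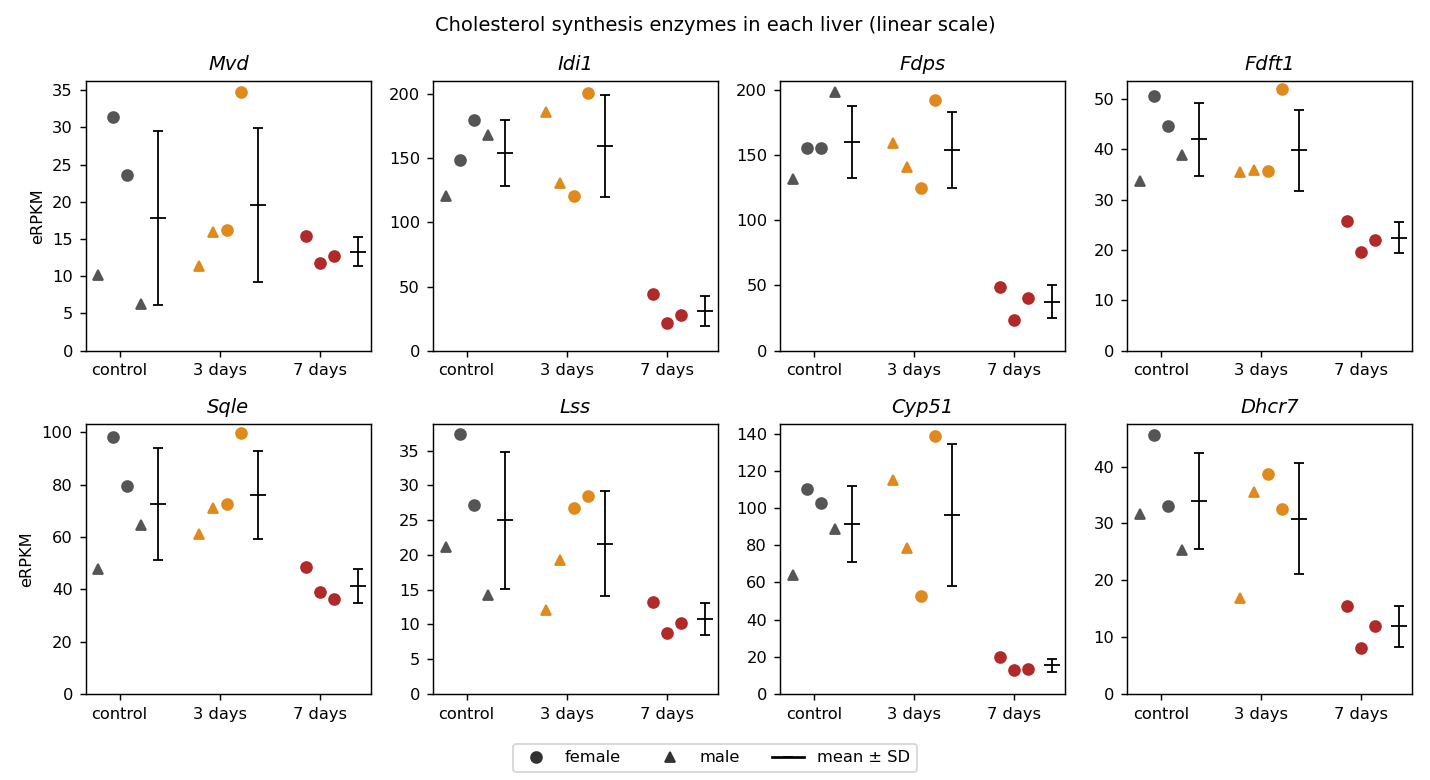
Level of each of 8 cholesterol synthesis enzymes in every liver, in eRPKM on a linear axis from 0; circles are female and triangles male livers, and the black bar beside each group is its mean with the SD (4 control, 4 3-day and 3 7-day livers). The 7-day livers lie below all other livers for Idi1, Fdps, Fdft1, Cyp51 and Dhcr7, while for Mvd they lie inside the range of the controls.

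The earliest enzyme of the pathway among the 9, Hmgcs1, which makes HMG-CoA in the cytosol, had no usable measurement. It was covered by 1 read in each of control livers 1 and 2, 3-day liver 1 and 7-day liver 3 and by 0 reads in the other 7 livers, so its highest level was 0.0430 eRPKM. Genes on both sides of it in the pathway were well covered, as with Idi1 (374 to 2412 reads per liver). The window around its RefSeq start (GRCm38.p6) was searched for in 3 pieces, all of which lay on 2 unplaced contigs of the mm9 assembly and on no assembled chromosome. The same was true of its neighbours Nim1k (0 reads in every liver) and Zfp131 (0 to 5 reads), while the windows of Mvd, Idi1, Lss, Cyp51 and Dhcr7 lay on assembled chromosomes. Whether this placement has a part in the low value was not tested.

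Mvd (chr8:124957496-124967322, minus strand, mm9), which decarboxylates diphosphomevalonate in the last mevalonate step, was the most variable of the 8 enzymes in the control and 3-day groups. Its levels were 10.2, 31.4, 23.6 and 6.24 eRPKM in control livers 1 to 4, 11.3, 15.9, 16.3 and 34.8 eRPKM in 3-day livers 1 to 4, and 15.4, 11.7 and 12.7 eRPKM in 7-day livers 1 to 3. The 7-day livers thus lay between the male and the female controls. The control mean was 17.8 ± 11.7 eRPKM (SD, n = 4), a coefficient of variation of 65.6%, against 17.3% for Fdps and Fdft1, while at 7 days it was 14.5%, next to the lowest of the 8. The log2 fold change at 7 days was -0.16 (95% interval -1.20 to 0.88, limma adjusted p = 0.82), and its sign turned without control liver 2 (0.19) or control liver 3 (0.06). At 3 days it was 0.26 (95% interval -0.69 to 1.22). Control liver 4, the shallowest library, held 15 reads of Mvd.

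Idi1 and Fdps form and join the isoprenoid units. Idi1 (chr13:8884852-8891641, plus strand, mm9), the isopentenyl-diphosphate isomerase, measured 121, 148, 179.7 and 168 eRPKM in the controls, 186, 131, 121 and 201 eRPKM at 3 days, and 44.0, 21.3 and 27.7 eRPKM at 7 days. Every 7-day liver was below every other liver, and the lowest control was 2.74 times the highest 7-day liver. The difference was 5.08-fold on the log2(eRPKM + 0.5) scale (log2 fold change -2.34, SE 0.25, adjusted p = 2.8e-05). Fdps (chr3:88897514-88905881, minus strand, mm9), which makes farnesyl diphosphate, measured 132, 155, 155 and 198 eRPKM in the controls, 159, 141, 124 and 192 eRPKM at 3 days, and 48.6, 23.9 and 40.2 eRPKM at 7 days. Again the groups did not overlap, and the difference was 4.35-fold (log2 fold change -2.12, SE 0.24, adjusted p = 3.2e-05). At 3 days the log2 fold changes against control were 0.03 (95% interval -0.48 to 0.54) for Idi1 and -0.06 (95% interval -0.53 to 0.41) for Fdps. Both genes kept their call at 7 days, against control and against 3 days, under all 27 alternatives tried. The second isomerase gene, Idi2, was at 0 to 0.78 eRPKM and was not tested.

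The 3 enzymes from farnesyl diphosphate to lanosterol moved less. Fdft1 (chr14:63763990-63796630, minus strand, mm9), squalene synthase, measured 33.8, 50.6, 44.7 and 38.8 eRPKM in the controls, 35.5, 36.0, 35.8 and 52.0 eRPKM at 3 days, and 25.8, 19.6 and 22.1 eRPKM at 7 days. All 7-day livers were below all others, at a difference of 1.84-fold from control (log2 fold change -0.88, SE 0.19, adjusted p = 0.00263). The call against control was lost without 7-day liver 2 (adjusted p = 0.0172) or 7-day liver 3 (adjusted p = 0.0137) and with depth as a covariate (log2 fold change -0.97, adjusted p = 0.0117). In mm9, 769 bases of its exons overlap those of Ctsb on the other strand, and since the alignment used no strand, reads there cannot be told apart. Ctsb measured 85.8 to 122 eRPKM in controls and 107 to 115 eRPKM at 7 days.

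Sqle (chr15:59146632-59162747, plus strand, mm9), squalene epoxidase and a rate-limiting enzyme of the sterol branch, measured 47.9, 98.3, 79.5 and 64.6 eRPKM in the controls, 60.9, 70.9, 72.4 and 99.8 eRPKM at 3 days, and 48.6, 39.1 and 36.4 eRPKM at 7 days. The highest 7-day liver was just above the lowest control, so these groups overlapped by 1 liver. The log2 fold change at 7 days was -0.77 (95% interval -1.27 to -0.26), which did not pass the threshold (adjusted p = 0.0212). Lss (chr10:75994333-76019883, plus strand, mm9), lanosterol synthase, measured 21.1, 37.3, 27.2 and 14.2 eRPKM in the controls, 12.1, 19.2, 26.7 and 28.5 eRPKM at 3 days, and 13.2, 8.78 and 10.2 eRPKM at 7 days. All 7-day livers were below all controls, but 1 was above the lowest 3-day liver. Its log2 fold change at 7 days was -1.11 (95% interval -1.83 to -0.39, adjusted p = 0.0186), also short of the threshold, and 381 bases of its exons overlap a long non-coding gene. Sqle was called without control liver 1 (adjusted p = 0.0059), and Lss without control liver 4 (adjusted p = 0.0068) or without 3-day liver 1 (adjusted p = 0.0086). With median-ratio size factors both were called (adjusted p = 0.0052 for Sqle and 0.0032 for Lss), and with limma-voom Lss was called (adjusted p = 0.0066). Of 27 alternatives, 5 called Sqle and 9 called Lss against control, counting the looser threshold of adjusted p under 0.05.

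Cyp51 and Dhcr7 work after lanosterol. Cyp51 (chr5:4081145-4104746, minus strand, mm9), lanosterol 14-alpha-demethylase, measured 64.1, 110.4, 103 and 88.8 eRPKM in the controls, 115, 78.5, 52.6 and 139 eRPKM at 3 days, and 19.6, 12.9 and 13.4 eRPKM at 7 days. It showed the largest difference of the 8 enzymes at 7 days, 5.80-fold (log2 fold change -2.54, SE 0.30, adjusted p = 4.9e-05), and kept its call under all 27 alternatives against both control and 3-day livers. At 3 days its levels spread on both sides of the controls, with a log2 fold change of 0.01 (95% interval -0.59 to 0.61). Dhcr7 (chr7:151009050-151034315, plus strand, mm9), which reduces 7-dehydrocholesterol in the last step to cholesterol, measured 31.7, 45.6, 33.1 and 25.3 eRPKM in the controls, 16.8, 35.5, 38.7 and 32.5 eRPKM at 3 days, and 15.4, 8.17 and 12.0 eRPKM at 7 days. All 7-day livers were below all others, at 2.81-fold below control (log2 fold change -1.49, SE 0.30, adjusted p = 0.00181). Without 7-day liver 2 the adjusted p was 0.0128.

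Against the 3-day livers, the 7-day differences were of much the same size. The log2 fold changes were -2.54 for Cyp51, -2.38 for Idi1, -2.06 for Fdps, -1.32 for Dhcr7 and -0.80 for Fdft1, with adjusted p from 3.3e-05 (Idi1) to 0.00591 (Fdft1). Lss at -0.92 (adjusted p = 0.0463), Sqle at -0.86 (adjusted p = 0.0138) and Mvd at -0.42 (adjusted p = 0.51) were not called. Calls of Dhcr7 and Fdft1 in this comparison were lost without 7-day liver 2 (adjusted p = 0.0301 and 0.0332), without 7-day liver 3 (adjusted p = 0.0182 and 0.0269) and without 3-day liver 4 (adjusted p = 0.0136 and 0.0153). Dhcr7 was also not called without 3-day liver 2 (adjusted p = 0.0139), nor Fdft1 without 7-day liver 1 (adjusted p = 0.0112). In a fit of the 3-day and 7-day livers alone neither was called (adjusted p = 0.0124 for Dhcr7 and 0.0106 for Fdft1), and Fdft1 was not called without the variance trend (adjusted p = 0.0115), with depth as a covariate (adjusted p = 0.0128) or in females alone (adjusted p = 0.0125), at log2 fold changes from -0.80 to -0.93. Sqle was called without control liver 1 (adjusted p = 0.0078) or control liver 2 (adjusted p = 0.0092). It was also called in the fit of the 3-day and 7-day livers alone (adjusted p = 0.0088) and with limma-voom (adjusted p = 0.0078). In females alone both Sqle (adjusted p = 0.0080) and Lss (adjusted p = 0.0034) were called. Of 27 alternatives, 8 called Sqle and 6 called Lss, counting the looser threshold of adjusted p under 0.05.

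**Figure D2:**
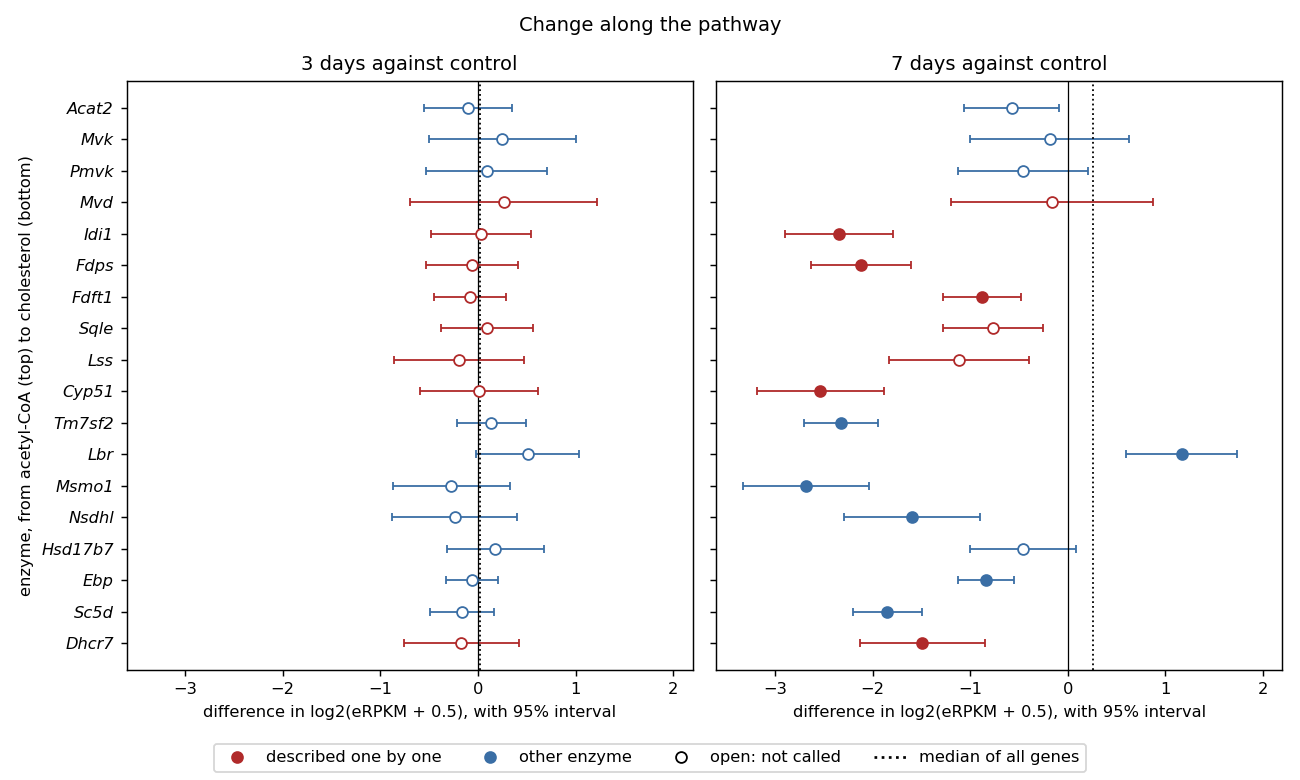
Difference from control in log2(eRPKM + 0.5) for 18 enzymes from acetyl-CoA (top) to cholesterol (bottom), with 95% intervals from limma, at 3 days (left) and 7 days (right). Red points are the enzymes described one by one and blue points the other enzymes, open points were not called, and the dotted line is the median of all genes tested. At 7 days the largest falls lie at Msmo1 (-2.68), Cyp51 (-2.54), Idi1 (-2.34) and Tm7sf2 (-2.32), while Lbr lies at 1.17.

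The other 12 enzymes of the pathway were all tested. At 7 days against control, 6 fell (among them Tm7sf2, Msmo1, Nsdhl, Ebp and Sc5d), 1 rose (Lbr) and 5 were not called, with a median log2 fold change of -0.70. Of all genes, 5.77% were called lower and 18% higher there, and 5.31% and 14% at 7 days against 3 days. At 3 days 0 of the 12 were called by limma or limma-voom and 0 had an unadjusted p under 0.05, and at 7 days against 3 days 5 fell (Tm7sf2, Msmo1, Nsdhl, Ebp and Sc5d) and 0 rose. Msmo1, which removes the methyl groups at carbon 4, fell by 2.68, Sc5d, the sterol C5-desaturase, by 1.85 and Nsdhl, which acts with Msmo1, by 1.60, each on the log2 scale. Ebp, the sterol isomerase, fell by 0.84. The sterol C14-reductases Tm7sf2 and Lbr, which carry out the step after Cyp51, changed in opposite directions: Tm7sf2 went from 45.0 to 57.6 eRPKM in controls to 9.24 to 12.5 eRPKM at 7 days, and Lbr from 7.94 to 16.7 eRPKM to 27.9 to 30.4 eRPKM. Lbr, also a protein of the inner nuclear membrane, rose by 1.17 on the log2 scale (SE 0.26, adjusted p = 0.00395), and by 0.90 with median-ratio size factors and 0.93 with quantile normalization. Without 7-day liver 2, the deepest library, 3 of the 8 enzymes and 4 of these 12 were called against control.

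Regulators of the pathway were read in the same fit. Of 13 genes of sterol sensing and uptake, 4 fell at 7 days against control (among them Scap, Insig1 and Stard4), 1 rose (Npc2, not called with median-ratio size factors) and 8 were not called. The shares of all genes were 5.77% called lower and 18% called higher. Srebf2, which encodes SREBP-2, measured 10.5 to 19.4 eRPKM in controls and 11.3 to 12.8 eRPKM at 7 days, a log2 fold change of -0.24 (adjusted p = 0.45). Insig1, a sterol-regulated retention protein of the SREBP complex, measured 171 to 268 eRPKM in controls and 67.8 to 97.8 eRPKM at 7 days and fell by 1.44 on the log2 scale (adjusted p = 0.00014).

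The unequal differences changed the make-up of the pathway transcripts. The 8 enzymes summed to 461 to 677 eRPKM in controls, 488 to 779 eRPKM after 3 days and 145 to 231 eRPKM after 7 days. In the 8 control and 3-day livers Fdps or Idi1 was the most abundant of the 8, and in 7-day livers 1 and 2 it was Sqle. By the group means the order in controls was Fdps, Idi1, Cyp51, Sqle, Fdft1, Dhcr7, Lss and Mvd, and the ranges of neighbours overlapped except those of Idi1 and Cyp51. At 7 days the order was Sqle, Fdps, Idi1, Fdft1, Cyp51, Mvd, Dhcr7 and Lss, and the ranges of all neighbours overlapped. Cyp51 made up 13.9 to 16.3% of the sum in controls, 10.8 to 19.3% of it after 3 days and 7.66 to 8.89% of it after 7 days. The share of Sqle was 10.4 to 14.5%, 10.2 to 14.9% and 20.8 to 26.9%, and that of Fdft1 6.43 to 7.47%, 5.94 to 7.34% and 11.2 to 13.5%. These shares do not depend on how a library is scaled, but each depends on the other 7 genes and on the gene lengths used. In control liver 2, female and nearest in depth to the 7-day livers, Sqle (14.5%), Fdft1 (7.47%) and Cyp51 (16.3%) had their highest shares of the controls. Idi1 (21.9%) and Fdps (22.9%) had their lowest there. The part of depth and sex in the shares was not tested. The exon lengths implied by the eRPKM differ from those of the GENCODE M1 annotation for some enzymes (for Lss 3890 and 10787 bases), so levels are better compared between livers than between genes.

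**Figure D3:**
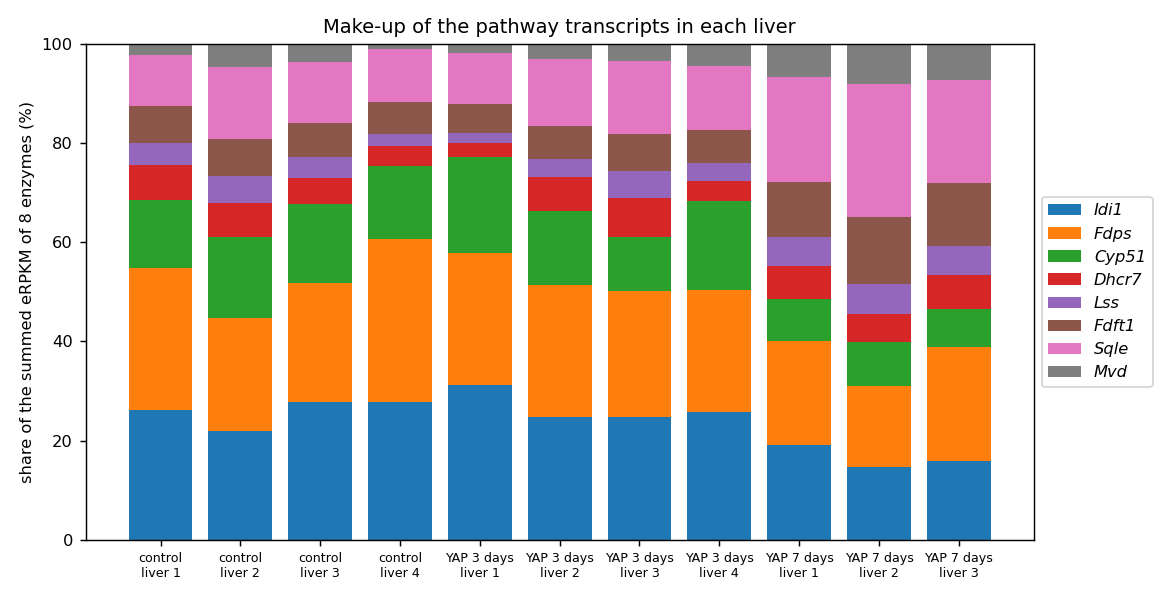
Share of each enzyme in the summed eRPKM of 8 cholesterol synthesis enzymes (vertical axis, percent) in each of 11 livers; each colour is 1 gene. In the 7-day livers Sqle makes up 20.8 to 26.9% of the sum, against 10.2 to 14.9% in the control and 3-day livers, and Cyp51 7.66 to 8.89%, against 10.8 to 19.3%.

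Sex and depth were followed as far as the libraries allow, because all 7-day livers were female and deeply sequenced. This contrast was chosen after the values were seen. Within the control and 3-day groups, female livers were above male livers without overlap for Mvd (16.3 to 34.8 against 6.24 to 15.9 eRPKM), Lss (26.7 to 37.3 against 12.1 to 21.1 eRPKM) and Sqle (72.4 to 99.8 against 47.9 to 70.9 eRPKM), 3 of the 8 enzymes, where 3.67% of all genes did not overlap in this direction. The female minus male difference was 1.26 on the log2 scale for Mvd (95% interval 0.59 to 1.92, limma adjusted p = 0.14), 0.85 for Lss (adjusted p = 0.16) and 0.52 for Sqle (adjusted p = 0.46), and none was called (0.232% of all genes were called higher and 0.161% lower in females). It was 0.10 for Idi1 (95% interval -0.39 to 0.58), -0.01 for Fdps (95% interval -0.44 to 0.43) and 0.17 for Cyp51 (95% interval -0.49 to 0.83). Every 7-day liver was below both female controls for all 8 enzymes, and the lower female control was 1.53 (Mvd) to 5.24 (Cyp51) times the highest 7-day liver. The share of all genes that did so was not counted. Under the stricter rule, every 7-day liver below every control, it was 13.3% of all genes, and Mvd and Sqle did not meet that rule. The share under the looser rule can only be the same or higher.

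In a fit of the 7 female livers alone, 2 of them controls and 2 of them 3-day livers, 7 of the 8 enzymes were called at 7 days against control. The log2 fold changes were -2.78 for Cyp51, -2.44 for Idi1, -2.09 for Fdps, -1.71 for Dhcr7, -1.55 for Lss, -1.10 for Sqle and -1.07 for Fdft1. Mvd stood at -1.01 (95% interval -1.71 to -0.32, adjusted p = 0.0353) and was not called. With the log2 level of Xist as a covariate 7 were called as well. Control liver 2, female and sequenced as deeply as the 7-day livers, was above the highest of them for all 8 enzymes, by 1.96 times for Fdft1, 2.03 times for Mvd and 5.64 times for Cyp51. For this liver, too, the share of all genes was not counted. In recovered reads, Cyp51 had 2726 reads in control liver 2 and 319 to 471 reads in the 7-day livers. The reads are computed from the same eRPKM, so at like depth they repeat its ratios and are no separate measurement. With depth as a covariate over all livers, 5 of the 8 were called. Lss was among them (log2 fold change -1.70, limma adjusted p = 0.00456) and Fdft1 was not (adjusted p = 0.0117). The share of all genes called in each of these 3 fits is not given here. Over the 27 alternatives, 1676 to 5390 genes were called at 7 days against control in either direction, and 3383 in the main fit.

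Within groups the enzymes did not all vary together. Over the 11 livers, deviations from the group means gave Pearson r of -0.08 to 0.92 for the 28 pairs of the 8 enzymes, with a median of 0.61. These values are descriptions over livers that share libraries, depth and sex. Idi1, Fdps and Cyp51, the enzymes with the largest falls, were alike (0.88 for Idi1 with Fdps, 0.84 for Idi1 with Cyp51, 0.66 for Fdps with Cyp51). Fdft1 and Sqle (0.92), Mvd and Lss (0.88) and Lss and Dhcr7 (0.87) were alike too. The lowest values were those of Cyp51 with Dhcr7 (-0.08), Idi1 with Dhcr7 (0.02) and Fdps with Lss (0.05). Fdft1 was also like Cyp51 (0.76), Idi1 (0.67) and Fdps (0.61), and Sqle like Cyp51 (0.62), so the enzymes did not fall into separate sets.

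**Figure D4:**
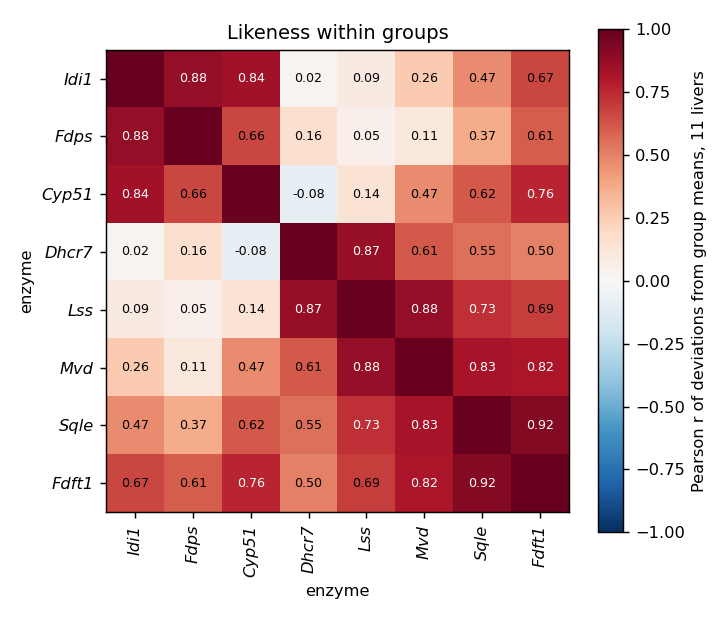
Pearson r between the deviations of 8 enzymes from their group means in log2(eRPKM + 0.5) over 11 livers; red is positive, blue negative, and each cell prints its value. The highest values are those of Fdft1 with Sqle (0.92), Mvd with Lss (0.88) and Idi1 with Fdps (0.88), and the lowest those of Dhcr7 with Cyp51 (-0.08) and Idi1 (0.02).

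Sequences before the RefSeq starts (GRCm38.p6) were read for 6 of the 9 genes, Hmgcs1, Mvd, Idi1, Lss, Cyp51 and Dhcr7, the last with 3 starts. The 250 bases before the start are printed for Cyp51 and Idi1, the genes with the largest falls among these, and for Mvd, the gene that differed least. In the female livers alone, Mvd too was lower at 7 days, by 1.01 on the log2 scale (limma adjusted p = 0.0353, not called). Capitals mark the letters TCACNNCA, a loose form of the sterol element that SREBP binds, and CCAAT, the box of the NF-Y factor that works beside SREBP, each on either strand (CCAAT reads ATTGG on the other).
Cyp51 (chr5:4104698-4104947, minus strand): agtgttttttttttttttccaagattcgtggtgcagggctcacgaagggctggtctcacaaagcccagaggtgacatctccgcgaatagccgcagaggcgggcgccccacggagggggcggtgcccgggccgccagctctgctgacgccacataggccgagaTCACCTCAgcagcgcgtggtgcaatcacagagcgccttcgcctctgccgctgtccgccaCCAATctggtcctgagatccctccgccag
Idi1 (chr13:8885356-8885605, plus strand): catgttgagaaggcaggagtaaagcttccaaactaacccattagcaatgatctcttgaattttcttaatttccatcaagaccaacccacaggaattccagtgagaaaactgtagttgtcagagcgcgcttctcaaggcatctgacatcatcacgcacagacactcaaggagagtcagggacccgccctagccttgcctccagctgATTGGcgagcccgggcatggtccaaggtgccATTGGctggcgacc
Mvd (chr8:122443423-122443672, minus strand): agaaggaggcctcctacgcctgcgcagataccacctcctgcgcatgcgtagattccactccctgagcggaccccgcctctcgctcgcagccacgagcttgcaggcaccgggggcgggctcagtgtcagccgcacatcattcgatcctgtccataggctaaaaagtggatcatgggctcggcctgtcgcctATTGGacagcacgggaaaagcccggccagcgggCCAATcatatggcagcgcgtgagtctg
CCAAT was in the window of all 6 genes, counting any start of Dhcr7, and in 33.8% of the 32851 windows of the same length in the table. TCACNNCA was in those of Cyp51, Dhcr7 and Hmgcs1, and in 11.4% of all windows. The stricter TCACNCCA, which overlaps it, was in that of Hmgcs1 (3.67% of all windows). GGGCGG, the GC box, was in all 6 (32.7% of all windows). GGAATG, the core letters of the TEAD motif, was in none of the 6 (12.6% of all windows), which says only that these letters are not in these windows. Idi1, which fell at 7 days, and Mvd, which was not called, both held CCAAT and not TCACNNCA.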

How the data were processed

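Whole-liver total RNA was sequenced in 11 libraries. Per the methods and the submitters' processing notes, read pairs were aligned to mm9 with TopHat2 2.0.8 without strand information, and the notes also list featureCounts 1.4.5-p1. The gene annotation and the handling of duplicate reads are not given in the sources used here. The deposited values are eRPKM, a kind of RPKM that the authors adjusted for library size. Besides these, 3 deposited columns give the authors' own comparison of 7 days with control (mean signal over libraries, log2 fold change, adjusted p-value); none was used. Columns were matched to samples by name.

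Genes that reached 0.5 eRPKM in 3 or more libraries (14244 of 20893) were tested with limma 3.58.1 (R 4.3.3, eBayes with trend) on log2(eRPKM + 0.5), with 3 groups in one fit, no covariate and Benjamini-Hochberg adjustment over all genes tested. Calls needed an adjusted p under 0.01 with a log2 fold change beyond 0.5 in either direction. Fold changes on this scale understate those of low genes. Reads were recovered from the steps of the eRPKM (all 177553 values above 0 lay within 0.1 of a whole read) and served for depth and 1 alternative. Steps were tested on simulated data. The text names the 9 enzymes, the relative Idi2, the other enzymes called in any comparison, Srebf2, Insig1, the label checks and the most alike genes; Ctsb, Scap, Stard4, Npc2 and the neighbours of Hmgcs1 were added after their values were seen. Some genes that the rule covers are counted in the lists and not reported here by name. The members and lists were chosen with earlier results of these data known. Alternatives changed the pseudocount, filter, scaling, fit, covariates, threshold and libraries.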

Additional observations from a re-analysis of the deposited data

Results flagged for a closer look

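Values were looked at for a library that stands far from the other 3 of its group, in 18 sets of 4 livers (the 8 tested enzymes and depth, in the control and 3-day groups); chance marks about 1 such set in 20. For Fdft1 in the 3-day group, liver 4 (52.0 eRPKM) lay apart from the other 3 livers (35.5 to 36.0 eRPKM), with a gap of 0.970 of the whole range, past Dixon's 95% limit. For depth in the 3-day group, liver 1 (2660233 reads on genes) lay below the other 3 livers (3626710 to 3681416 reads), with a gap of 0.946 of the range.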

How the results depend on the processing

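Of 27 alternatives, the count of the 8 enzymes called at 7 days ran from 3 to 7 both against control and against 3 days, and it was 0 under every one at 3 days. Leaving out 1 library at a time gave 3 to 6 enzymes against control, 3 to 6 against 3 days, and 4 to 7 of the 12 other enzymes against control; the 3 and the 4 against control came without 7-day liver 2. Samples with the same replicate number did not deviate together (10 pairs, r from -0.22 to 0.27, 2 above 0.1, and 2 of 11 libraries most like their own number), and with the replicate number as a block 4 enzymes were called against control, without Fdft1 (adjusted p = 0.0122), and 3 against 3 days, without Dhcr7 (0.0135) and Fdft1 (0.0223). Apart from the fits without 1 library, the signs that turned were those of small 3-day values: Cyp51 with median-ratio size factors (-0.015), quantile normalization (-0.10), the label suffix MF as a covariate (-0.22) and females only (-0.31), Sqle with quantile normalization (-0.022) and females only (-0.056), Idi1 with the suffix (-0.013) and females only (-0.067), Dhcr7 with the suffix (0.17), Fdps with depth as a covariate (0.00126) and Mvd with females only (-0.19). Without 1 library the 3-day log2 values ran from -0.13 to 0.62 for Mvd, -0.089 to 0.16 for Idi1, -0.17 to 0.049 for Fdps, -0.21 to 0.014 for Fdft1, -0.090 to 0.25 for Sqle, -0.43 to 0.055 for Lss, -0.20 to 0.27 for Cyp51 and -0.30 to 0.095 for Dhcr7, and the 7-day value of Mvd against control from -0.55 to 0.19. The cause was not tested. Over all genes, 822 were called lower and 2561 higher at 7 days against control, 1254 and 1951 with size factors, and 1821 and 1857 with quantile normalization, under which 7 and 6 of the 8 enzymes were called. The female against male differences of Mvd were 1.02 to 1.56 under 13 alternatives, with adjusted p from 0.0171 to 0.53. The number of 7-day livers, 3 and all female, limits these comparisons.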

Other observations

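Farnesyl diphosphate also feeds branches other than sterols. Of 8 genes of these branches, 0 were called at 7 days against control in limma or limma-voom (1 lower with median-ratio size factors, 2 lower with quantile normalization), with 0 lower and 3 higher at an unadjusted p under 0.05 (12.9% and 34.5% of all genes), log2 fold changes from -0.42 to 0.94 and a median of 0.06.

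Among 12561 genes outside the enzymes, the 10 whose deviations within groups were most like the mean of the 8 enzymes over the 11 livers included Eif2s3x, Mir3091, Il1b, Cyp26a1, Slc6a13, Pomgnt1, Cstf2, Cog6 and Pdzk1, with Pearson r from 0.89 to 0.94. Of these, Pdzk1 was at -0.97 on the log2 scale at 7 days against control (adjusted p = 0.000779) and Cyp26a1, a retinoic acid hydroxylase, at 2.33 (adjusted p = 0.000512). Eif2s3x, an X-linked gene, was at -0.03 (adjusted p = 0.91). With this many genes set against 11 livers, such values are a description of these libraries.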
